A study of Mus musculus with 8 samples.

Results

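The let-7 and miR-98 family was described in mouse liver through the 5p arms of its hairpins, the arms that act as guide strands. Its members, listed with the mouse prefix as mmu-let-7a-5p, mmu-let-7b-5p and so on to mmu-miR-98-5p, are called here let-7a-5p, let-7b-5p, let-7c-5p, let-7d-5p, let-7e-5p, let-7f-5p, let-7g-5p, let-7i-5p and miR-98-5p. These 9 members were chosen by name, and all of them were among the 443 mature sequences counted in the study. The samples were livers of male mice of the inbred strain C57BL/6J, aged 10 to 11 weeks. The diets were given for 2 weeks, and each is represented by 4 samples. One was high in fructose (HFrD), with 70% of energy from carbohydrate, 20% from protein and 10% from fat. By the labels it is a model of non-alcoholic fatty liver disease (NAFLD). The other was normal chow. The make-up of the chow was not stated, so fructose cannot be told apart from other differences between the diets. The samples are numbered as replicates without a statement that each was its own mouse, so p-values cover only the spread among libraries, which may be technical. Because whole liver was sampled, fewer cells of a type and less RNA per cell cannot be told apart.

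The let-7 family is an ancient group of microRNAs, first known from the timing of development in the worm Caenorhabditis elegans and abundant in adult mammalian tissue. Its members share a seed, the stretch near the 5′ end that pairs with target messenger RNAs, and are therefore held to act on overlapping targets, among them Ras genes, Hmga2 and genes of insulin signalling. The RNA-binding proteins LIN28A and LIN28B block the maturation of let-7 precursors, and in mice this axis is known to act on glucose metabolism.

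The mature sequences are printed 5′ to 3′ because the members differ by so few bases that this bears on how tags were assigned to them. Capitals mark the seed, bases 2 to 8.
let-7a-5p: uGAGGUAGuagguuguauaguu
let-7b-5p: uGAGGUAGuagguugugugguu
let-7c-5p: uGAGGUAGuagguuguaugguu
let-7d-5p: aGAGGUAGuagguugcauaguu
let-7e-5p: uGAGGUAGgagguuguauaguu
let-7f-5p: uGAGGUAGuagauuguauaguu
let-7g-5p: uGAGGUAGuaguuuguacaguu
let-7i-5p: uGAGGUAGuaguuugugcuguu
miR-98-5p: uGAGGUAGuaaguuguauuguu
All 9 deposited sequences were identical to the mature forms in RefSeq (GRCm38.p6), and each was 22 bases long. The lengths of the counted tags were not analysed here. Among the 443 sequences of the table, 9 carried the seed GAGGUAG at these positions, and these were the 9 members. Outside the seed, 7 further positions were the same in every member, which left 8 variable positions out of 22. Substitutions are given with the base of let-7a-5p first and positions counted from 1 at the 5′ end. Only let-7d-5p differed in its first base (U1A), and it also carried U16C. One base set let-7c-5p (A19G), let-7e-5p (U9G) and let-7f-5p (G12A) apart from let-7a-5p. let-7b-5p had A17G and A19G, let-7g-5p had G12U and U18C, miR-98-5p had G11A and A19U, and let-7i-5p had G12U, A17G, U18C and A19U. Of the 36 pairs of members, 4 differed by a single base and 10 by 2 bases, with a maximum of 6 between let-7i-5p and let-7d-5p. The rule by which a tag matching several members was assigned is not stated in the labels or headers, so a level of a rare member that is 1 base from a common one, such as let-7a-5p beside let-7f-5p, carries that uncertainty.

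The members came from 12 hairpins, and let-7a-5p, let-7c-5p and let-7f-5p had 2 each, so their counts cannot be divided between loci. Positions are on GRCm38, the assembly behind mm10, with annotation from GENCODE M21. A cluster on the minus strand of chromosome 13 held Mirlet7d (chr13:48536012-48536114), Mirlet7f-1 (chr13:48537829-48537917) and Mirlet7a-1 (chr13:48538179-48538272), all in exons of the long non-coding RNA 6720427I07Rik. Mirlet7c-2 (chr15:85706603-85706697) and Mirlet7b (chr15:85707319-85707403) lay 0.621 kb apart in exons of the non-coding gene Lncppara, on the plus strand. On the X chromosome Mirlet7f-2 (chrX:151912346-151912428) and Mir98 (chrX:151913214-151913321) lay 0.785 kb apart in introns of Huwe1, a ubiquitin ligase gene, on its strand. Mirlet7g (chr9:106178840-106178927) lay in an intron of Wdr82, a gene of a histone methyltransferase complex, and Mirlet7i (chr10:122985640-122985724, minus strand) in an exon of the transcribed pseudogene D630033A02Rik. The other hairpins stood beside hairpins of the miR-99, miR-100 and miR-125 families. These were Mirlet7a-2 (chr9:41536716-41536811), Mirlet7c-1 (chr16:77599657-77599750), in an intron of Mir99ahg, and Mirlet7e (chr17:17830352-17830444), in an intron of Spaca6.

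Library totals ran from 1120035 to 1638036 tag counts. All 9 members passed the filter on low counts, as did 170 of the 443 sequences. Liver identity was plain in the counts, with the hepatocyte miRNA miR-122-5p at 137217 ± 19237 CPM in HFrD and 164647 ± 6308 CPM in chow (CPM is a count scaled to library size; SD, n = 4 each). The markers of myeloid cells, none of which passed the filter, summed to between 10.3 and 17.6 CPM in HFrD and between 6.997 and 22.2 CPM in chow. Library sizes for CPM were scaled by trimmed means of M-values (TMM). These factors averaged 1.05 in HFrD and 0.959 in chow, so levels over plain library totals run, on average, higher in HFrD and lower in chow than those given here. A principal component analysis set chow replicate 4 apart. On its leading axis, which held 37.4% of the variance, the HFrD libraries ran from −2.69 to −1.50, chow replicate 4 was at 5.14 and the other chow libraries ran from 0.516 to 1.69.

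The family was a large part of the liver miRNA pool, and let-7g-5p, let-7f-5p and let-7i-5p made up nearly all of it. Its 9 members together took 7.73%, 7.67%, 7.04% and 7.55% of the library totals in HFrD replicates 1 to 4, against 7.53%, 7.44%, 6.83% and 6.58% in chow replicates 1 to 4. let-7g-5p was the most abundant member, at 38933 ± 1846 CPM in HFrD and 41562 ± 1719 CPM in chow (SD, n = 4 each). let-7f-5p followed at 14944 ± 254 CPM in HFrD and 16340 ± 1164 CPM in chow. let-7i-5p came next, at 12597 ± 414 CPM in HFrD and 10907 ± 728 CPM in chow. These 3 held 92.5% ± 0.585 of the family's counts in HFrD and 93.0% ± 0.431 in chow.

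The other 6 members were far lower. let-7a-5p was at 2629 ± 115 CPM in HFrD and 2477 ± 210 CPM in chow, and let-7c-5p at 1155 ± 44.7 CPM in HFrD and 1225 ± 54.2 CPM in chow. let-7d-5p was at 814 ± 73.6 CPM in HFrD and 619 ± 128 CPM in chow, and let-7b-5p at 583 ± 28.0 CPM in HFrD and 643 ± 45.6 CPM in chow. miR-98-5p was at 121 ± 10.2 CPM in HFrD and 117 ± 10.7 CPM in chow. let-7e-5p was the rarest, at 66.7 ± 8.88 CPM in HFrD and 64.1 ± 5.73 CPM in chow, and its raw counts of 70 to 110 per library limit its precision most. The number of hairpins did not order the levels, as let-7g-5p and let-7i-5p have 1 hairpin each and let-7a-5p and let-7c-5p have 2. Each member's 4 libraries lay above those of the next in this order within each diet, apart from let-7d-5p and let-7b-5p in chow. There let-7d-5p ran from 439 to 742 CPM and let-7b-5p from 595 to 702 CPM, so they did not differ beyond their spread, while in HFrD let-7d-5p (739 to 909 CPM) lay above let-7b-5p (545 to 606 CPM) in every library.

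**Figure D1:**
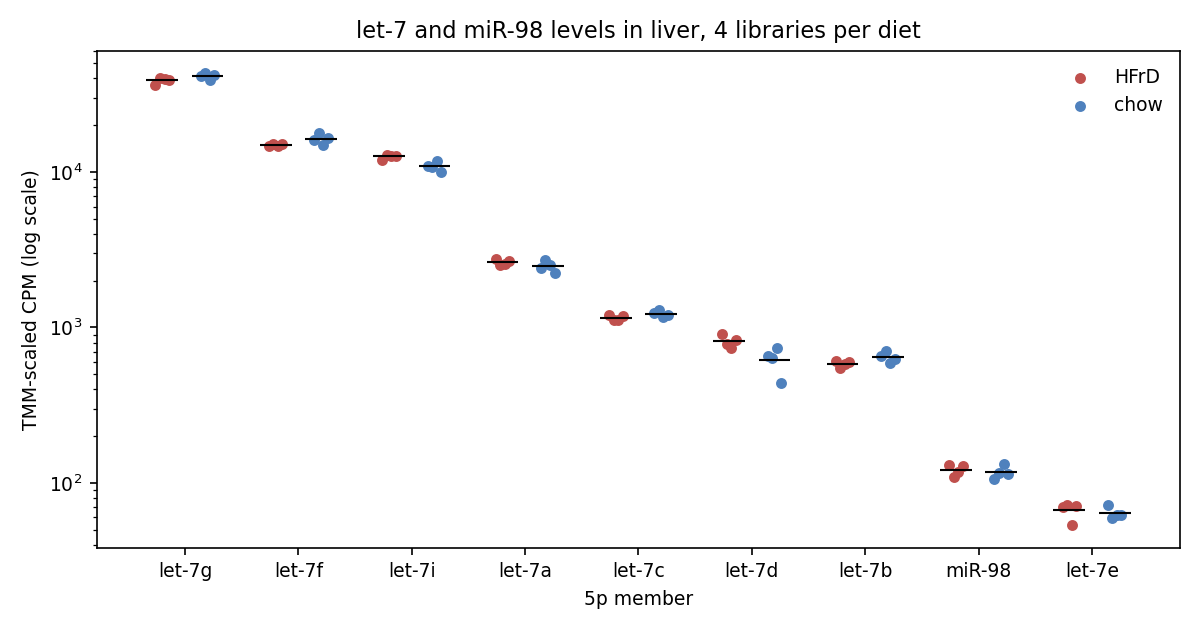
TMM-scaled CPM on a log axis for the 9 members, ordered by mean level, with 1 point per library (HFrD left, chow right, n = 4 each) and a black line at each mean. let-7g-5p, let-7f-5p and let-7i-5p are the top 3 in every library and let-7e-5p is the lowest, and let-7d-5p in chow replicate 4 (439 CPM) lies lowest of its 8 values.

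The comparison of diets asks whether the family's levels differ between HFrD and chow. No member passed the threshold. The family total, let-7i-5p and let-7d-5p are given first because the total is the pool sharing 1 seed, and these members had the smallest p-values. The total was 68624, 73613, 72435 and 72697 CPM in HFrD replicates 1 to 4, against 73804, 77326, 71120 and 73565 CPM in chow replicates 1 to 4. The groups overlapped, with means of 71842 ± 2204 CPM in HFrD and 73954 ± 2555 CPM in chow (SD, n = 4 each), a log2 ratio of −0.04. The sign of this ratio depended on the scaling, as over library totals it was 0.08.

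let-7i-5p was measured at 11999, 12949, 12692 and 12749 CPM in HFrD replicates 1 to 4, against 10988, 10857, 11780 and 10002 CPM in chow replicates 1 to 4. All 4 HFrD libraries lay above all 4 chow libraries. Its log2 fold change was 0.21 (SE 0.082, 95% interval 0.04 to 0.38), a 1.15-fold higher level in HFrD that did not pass the threshold of 0.05 (unadjusted p = 0.0205, adjusted p = 0.129, quasi-likelihood test of edgeR with Benjamini-Hochberg adjustment over 170 sequences). It was the only member of 9 whose groups did not overlap. Over all 170 sequences tested the groups did not overlap in 14.1%, and in 5.88% they did so with HFrD higher. This count rested on single libraries, as 6 of 9 members had groups without overlap when chow replicate 3 was left out, against 28.2% of sequences, and 2 of 9 when HFrD replicate 3 was left out, against 16.5%. With other scalings of all 8 libraries it was 2 of 9 over library totals, against 15.9%, and 2 of 9 with RLE factors (the median-ratio scaling), against 13.5%.

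let-7d-5p was measured at 909, 778, 739 and 829 CPM in HFrD replicates 1 to 4, against 656, 639, 742 and 439 CPM in chow replicates 1 to 4. The groups overlapped by a small margin, since chow replicate 3 lay just above HFrD replicate 3, and chow replicate 4 was the lowest library by far. The log2 fold change of let-7d-5p was 0.39 (SE 0.13, 95% interval 0.12 to 0.67), or 1.31-fold, the largest of the 9, and it too fell short of the threshold (unadjusted p = 0.00757, adjusted p = 0.0677, edgeR). Without chow replicate 4 it was 0.24 (adjusted p = 0.192, edgeR), and without chow replicate 3 it was 0.50 and passed (adjusted p = 0.0390, edgeR). With library totals in place of TMM factors both let-7d-5p (log2 fold change 0.51, adjusted p = 0.0248, edgeR) and let-7i-5p (0.33, adjusted p = 0.0219, edgeR) passed as higher. That scaling moved the median log2 fold change of all 170 sequences to 0.13, against 0.01 with TMM factors.

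The most abundant pair lay on the other side of zero. let-7g-5p was at 36225, 40301, 39845 and 39362 CPM in HFrD replicates 1 to 4, against 41531, 43163, 39185 and 42368 CPM in chow replicates 1 to 4. Its groups overlapped only through chow replicate 3, which lay below 3 HFrD libraries. At a log2 fold change of −0.09 (SE 0.080, 95% interval −0.26 to 0.07) it did not pass (adjusted p = 0.483, edgeR), and its sign turned with library totals (0.03). let-7f-5p was at 14713, 15217, 14743 and 15102 CPM in HFrD replicates 1 to 4, against 16139, 17762, 14936 and 16523 CPM in chow replicates 1 to 4. Again chow replicate 3 alone lay among the HFrD libraries, and the log2 fold change was −0.13 (SE 0.081, 95% interval −0.30 to 0.04, adjusted p = 0.396, edgeR).

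The remaining members had log2 fold changes of 0.09 (SE 0.087) for let-7a-5p, −0.08 (SE 0.085) for let-7c-5p, −0.14 (SE 0.093) for let-7b-5p, 0.05 (SE 0.12) for miR-98-5p and 0.05 (SE 0.15) for let-7e-5p. None of these passed, with adjusted p from 0.397 to 0.823 in edgeR, and their groups overlapped. Single libraries moved several of these small values: let-7a-5p was at 0.015 without chow replicate 4, let-7e-5p ran from 0.013 without HFrD replicate 2 to 0.14 without HFrD replicate 3, and miR-98-5p from 0.0055 without chow replicate 1 to 0.12 without chow replicate 3. The widest interval, that of let-7e-5p, ran from −0.27 to 0.37, so a change of up to 1.30-fold in that member is within its error. In all, 0 of 9 members were called, against 5.88% of the 170 sequences tested (4 higher and 6 lower), and 2 of 9 had an unadjusted p under 0.05, against 23.5%. DESeq2 also called 0 of 9 members, against 5.36% of 168 sequences. With library totals 2 of 9 were called, against 13.5% of sequences (17 higher and 6 lower). On the authors' normalized values limma called the same 2, against 11.8% of sequences. With no filter edgeR called 1 of 9, let-7d-5p, against 4.97% of 443 sequences. Leaving out chow replicate 3 also gave 1 of 9, let-7d-5p, against 9.66% of sequences, and leaving out chow replicate 4 gave 0 of 9, against 4.05%. The median log2 fold change of the 9 members was 0.05, beside 0.01 over all 170. The signs of let-7c-5p and let-7g-5p turned positive with library totals, where the medians were 0.18 for the members and 0.13 for all sequences.

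**Figure D2:**
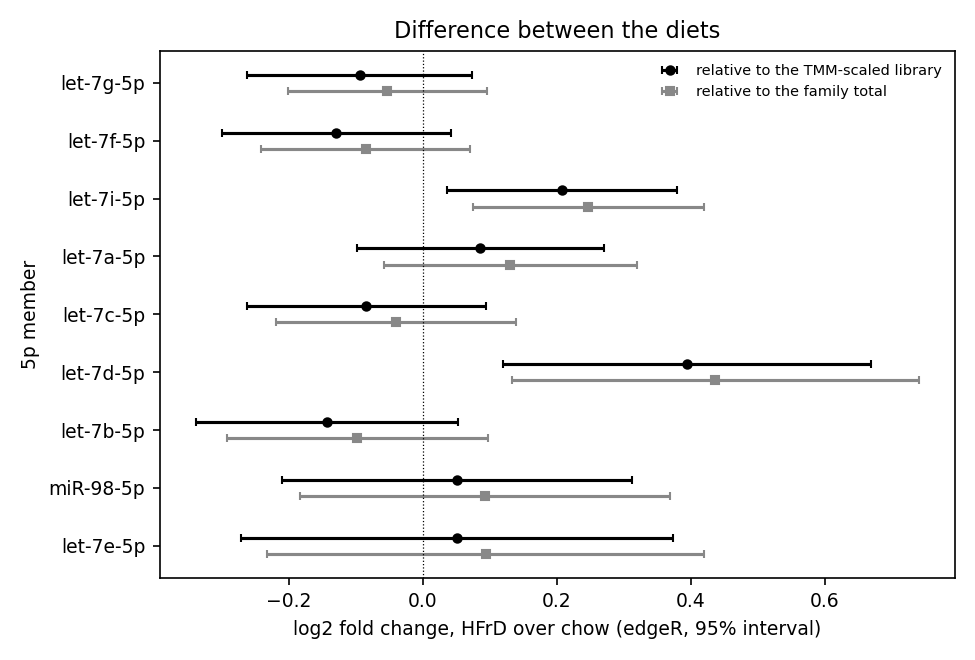
Log2 fold change of HFrD over chow with 95% interval from edgeR for the 9 members, ordered by level; circles are relative to the TMM-scaled library and squares to the sum of the 9 members. The intervals of let-7i-5p (0.04 to 0.38) and let-7d-5p (0.12 to 0.67) lie above 0 before adjustment for the 170 sequences tested, and the other 7 circles have intervals that span 0.

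The make-up of the family does not depend on how libraries are scaled, since the share of each member is its count over the sum of the 9. let-7i-5p held 17.5%, 17.6%, 17.5% and 17.5% of the family in HFrD replicates 1 to 4, against 14.9%, 14.04%, 16.6% and 13.6% in chow replicates 1 to 4. The groups did not overlap, and the HFrD libraries lay far closer together, with 17.5% ± 0.0437 in HFrD and 14.8% ± 1.31 in chow (SD, n = 4 each). That spread in HFrD was below the error from counting alone, 0.112 to 0.130 percentage points per library, so a spread this small is not a measure of how much livers vary. let-7g-5p held 52.8%, 54.7%, 55.0% and 54.1% in HFrD, against 56.3%, 55.8%, 55.1% and 57.6% in chow, again without overlap, although HFrD replicate 3 and chow replicate 3 differed by little. let-7f-5p held 20.8% ± 0.457 in HFrD and 22.1% ± 0.845 in chow, and let-7d-5p held 1.14% ± 0.136 in HFrD and 0.839% ± 0.185 in chow, each with groups that overlapped through chow replicate 3. So 2 of the 9 members had shares without overlap, 1 of them higher in HFrD. When all 170 sequences were set over the family total in the same way, the groups did not overlap in 12.4%, and in 5.88% with HFrD higher. The shares of the 9 members add up to the whole, so a higher share of 1 member lowers those of others. The 2 shares without overlap are therefore not separate results. Sequences outside the family are not bound in this way, so these percentages are a background of another kind.

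**Figure D3:**
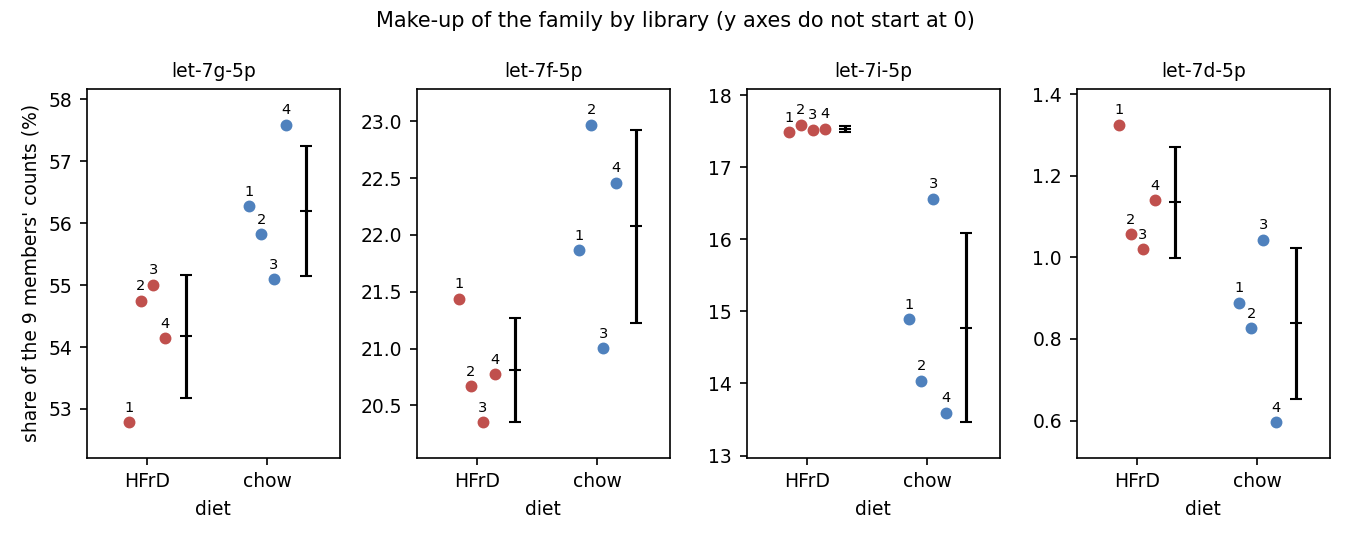
Share of the 9 members' summed counts (%) held by let-7g-5p, let-7f-5p, let-7i-5p and let-7d-5p in each library (points numbered by replicate, HFrD left, chow right), with mean and SD beside them (n = 4 each); the axes do not start at 0. let-7i-5p lies between 17.5% and 17.6% in HFrD and between 13.6% and 16.6% in chow, and chow replicate 3 is the chow library nearest to HFrD in all 4 panels.

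A test of the shares was made by taking the family total as the library size of every sequence in edgeR, a setting added after the data were seen. Relative to the family, let-7d-5p had a log2 fold change of 0.44 (SE 0.14) and let-7i-5p of 0.25 (SE 0.081), each with an adjusted p of 0.0707 in edgeR. No member passed, and 6.47% of the 170 sequences did. Without chow replicate 3 both passed (0.56, adjusted p = 0.0312, for let-7d-5p and 0.31, adjusted p = 0.0316, for let-7i-5p, edgeR). Without chow replicate 4 they were at 0.30 (adjusted p = 0.125, edgeR) and 0.21 (adjusted p = 0.143, edgeR). The chow libraries were in the same order for the shares of both members, with replicate 3 highest, then 1, 2 and 4. let-7g-5p and let-7f-5p were at −0.05 and −0.09 relative to the family.

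Members differed in how steadily they kept to each other. The SD over the 8 libraries of the log2 ratio of a pair was used, which does not depend on scaling either. It takes both diets together, so a difference between the diets adds to it. let-7b-5p, let-7c-5p, let-7f-5p and let-7g-5p formed a close block, with SDs from 0.05 to 0.10 for their 6 pairs. The steadiest pair was let-7c-5p and let-7b-5p, which differ by 1 base, so the unstated rule for assigning tags bears on their ratio. Their hairpins Mirlet7c-2 and Mirlet7b are neighbours on chromosome 15, but let-7c-5p also arises from Mirlet7c-1 on chromosome 16. The SD of this pair, 0.05, was no more than the 0.06 that counting error gives. let-7c-5p was present at 1.97, 2.06, 1.92 and 1.98 times let-7b-5p in HFrD replicates 1 to 4, against 1.89, 1.84, 1.96 and 1.93 times in chow replicates 1 to 4. let-7g-5p to let-7f-5p had a like SD (0.05), although these lie on different chromosomes. That SD was above the 0.012 that counting error gives for this pair, unlike the SD of let-7c-5p to let-7b-5p.

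let-7d-5p varied most against the others, with SDs from 0.22 to 0.39 over its 8 pairs. The least steady of all 36 pairs was let-7f-5p with let-7d-5p (SD 0.39, counting error 0.05), although Mirlet7f-1 and Mirlet7d lie within 1.71 kb of each other on chromosome 13. let-7f-5p was present at 16.2, 19.6, 20.0 and 18.2 times let-7d-5p in HFrD replicates 1 to 4, against 24.6, 27.8, 20.1 and 37.7 times in chow replicates 1 to 4. Chow replicate 4 stood highest and chow replicate 3 close to the HFrD libraries. Because let-7f-5p also arises from Mirlet7f-2 on the X chromosome, this ratio is not one of 2 products of a single transcript. Over the 5 pairs with hairpins within 100 kb of each other the median SD was 0.19, and over the other 31 pairs it was 0.18. These medians cannot show whether neighbours keep steadier ratios. Each of the 5 pairs holds let-7a-5p, let-7c-5p or let-7f-5p, which also have a hairpin on another chromosome. The pairs share members, and their counting error differs, up to 0.20 for miR-98-5p with let-7e-5p among the 31. let-7i-5p and let-7a-5p kept closer to each other (SD 0.12) than either did to let-7g-5p (0.19 and 0.16).

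**Figure D4:**
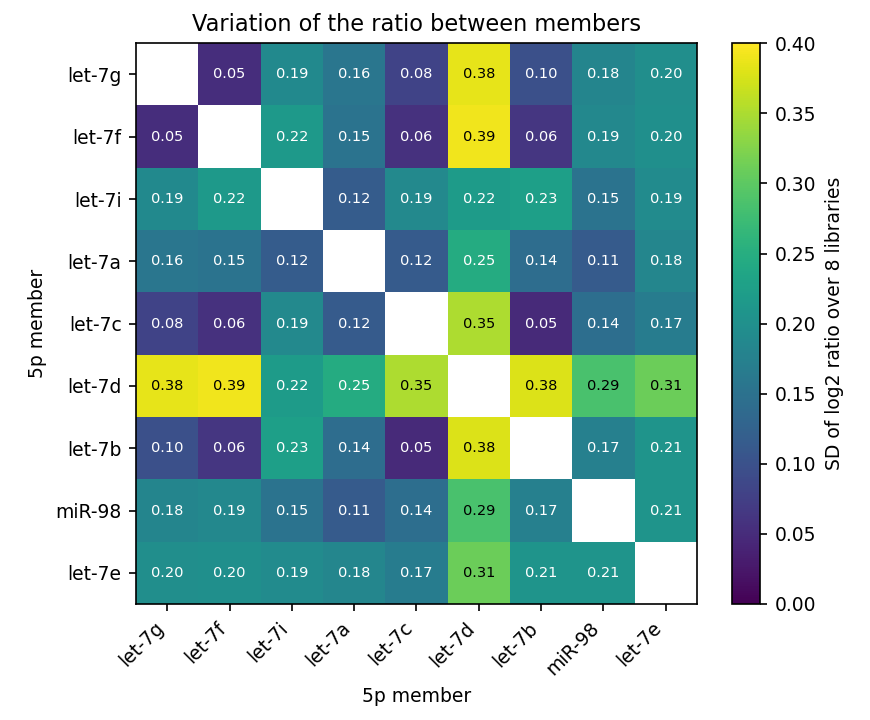
SD over the 8 libraries of the log2 ratio between each pair of members, ordered by level; a low value means that the pair kept a steady ratio. The row and column of let-7d-5p hold the highest values, up to 0.39, and let-7g-5p, let-7f-5p, let-7c-5p and let-7b-5p have values from 0.05 to 0.10 among themselves.

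The passenger arms, the strands that are mostly degraded, were rare. Of 12 listed 3p arms, 7 were in the table as 6 sequences, because let-7a-1-3p and let-7c-2-3p are identical. Of these only let-7d-3p passed the filter, at 96.8 ± 16.4 CPM in HFrD and 83.5 ± 16.2 CPM in chow (SD, n = 4 each). The groups overlapped, and the log2 fold change, 0.21 (SE 0.17), missed the threshold (adjusted p = 0.479, edgeR), beside 0.39 for let-7d-5p. The other 5 sequences (that shared sequence, let-7c-1-3p, let-7e-3p, let-7f-2-3p and let-7i-3p) had between 2 and 7 counts in the libraries where they were listed. let-7j and let-7k, from further let-7 hairpins, were not among the sequences of the table.

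Neighbouring hairpins give miR-99a and miR-100, relatives of each other, and miR-125a and miR-125b, the mammalian forms of the worm timing miRNA lin-4. Of 11 listed arms, 7 were in the table and 6 passed the filter, and none was called in either direction (median log2 fold change −0.06). miR-100-5p, whose hairpin lies 5.21 kb from Mirlet7a-2, was at 1963, 1947, 1751 and 1916 CPM in HFrD replicates 1 to 4, against 2183, 1964, 2037 and 2073 CPM in chow replicates 1 to 4. Its groups did not overlap by a narrow margin, and it was not called (log2 fold change −0.12, SE 0.083, adjusted p = 0.412, edgeR), beside 0.09 for let-7a-5p. miR-99a-5p, 0.656 kb from Mirlet7c-1, was at 0.00 (SE 0.11, adjusted p = 0.972, edgeR), and miR-125b-5p was at 0.19 (SE 0.12, adjusted p = 0.396, edgeR). miR-99b-5p was at 0.01 (SE 0.12) and miR-125a-5p, 0.367 kb from Mirlet7e, at −0.19 (SE 0.23), with adjusted p of 0.953 and 0.613 in edgeR. miR-99b-3p was at −0.22 (SE 0.26, adjusted p = 0.597, edgeR), and miR-125b-1-3p did not pass the filter.

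The ratio to the family total was taken for the 160 other sequences that passed the filter and were counted in every library. Those keeping it steadiest over the 8 libraries were miR-192-5p (SD of the log2 ratio 0.09), miR-148a-5p (0.09), miR-103-3p (0.10), miR-100-5p (0.10) and miR-340-5p (0.10), against a median of 0.28. miR-192-5p is a miRNA of liver and gut epithelium and stood at 91070 CPM in HFrD and 90446 CPM in chow, and miR-148a-5p comes from the hairpin of miR-148a, whose other arm is abundant in hepatocytes. The 5 were named by this measure alone, which favours abundant sequences because their counting error is small.

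One marker of another cell type, the endothelial miR-126a-3p, was lower in HFrD in the same libraries. The 2 endothelial markers, miR-126a-3p and miR-126a-5p, summed to between 5890 and 6863 CPM in HFrD and between 7437 and 10079 CPM in chow, and 1 of the 2, miR-126a-3p, passed as lower (log2 fold change −0.43, SE 0.098, adjusted p = 0.0123, edgeR), while miR-126a-5p did not (−0.12, adjusted p = 0.504, edgeR). Chow replicate 4, lowest in the shares of let-7i-5p and let-7d-5p, had the highest sum of these markers. This was not particular to endothelial markers. The same library had the highest sums of biliary (743 CPM), muscle (736 CPM) and myeloid markers (22.2 CPM), and the lowest TMM factor (0.894), which raises its CPM. The sums of hepatocyte, stellate and fibroblast, lymphoid, erythroid and neuroendocrine markers were highest in other libraries. This endothelial sum was nearly all miR-126a-3p (6113 CPM in HFrD and 8234 CPM in chow). miR-126a-5p was at 280 CPM in chow replicate 4, below chow replicates 2 (310 CPM) and 3 (306 CPM) and above chow replicate 1 (252 CPM). The sums of the 5 hepatocyte markers ran from 581254 to 627727 CPM in HFrD and from 615774 to 704210 CPM in chow. Of the 5, 1 passed as lower, miR-122-3p, a very small part of that sum (139 CPM in HFrD and 216 CPM in chow). None of the other hepatocyte markers was called. Over all 170 sequences tested, 5.88% were called (4 higher and 6 lower). The sums of the 4 stellate cell and fibroblast markers ran from 3792 to 5182 CPM in HFrD and from 4415 to 4955 CPM in chow, and none was called. That sum was nearly all miR-143-3p (4228 CPM in HFrD and 4503 CPM in chow, log2 fold change −0.09), while miR-145a-5p and miR-199a-3p were at 0.34 and 0.19, and the median of the 3 tested was 0.19. The part of these cells in the values of the let-7 members was not tested.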

How the data were processed

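Small RNA tags were counted in 8 samples of mouse liver, 4 from HFrD and 4 from chow. The deposited counts are whole numbers of raw tags per mature miRNA, per the file headers. Per the submitters' processing notes, the tools were cutadapt 1.9.2 and Novoalign 3.02.12, and the genome build was mm10. The labels' protocols describe a stranded total RNA library after ribosomal RNA removal, which is not a small RNA preparation; how small RNA was selected, and which miRNA release was used, is not stated. A normalized value per miRNA, deposited beside the counts, was read as a score: each count divided by a constant of its library (4.21 to 6.19) and rounded.

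The 484 entries were merged by mature sequence into 443. Blank cells (1252 of 3544) were read as 0; the smallest listed value was 2. edgeR 4.0.16 (R 4.3.3) fitted diet alone on all sequences passing filterByExpr (minimum count 10), with TMM factors, the 2-sided quasi-likelihood test, Benjamini-Hochberg adjustment and a threshold of 0.05. An SE is the log2 fold change over the square root of the F statistic. DESeq2 1.42.0 and limma 3.58.1 (log2 of score plus 1) were alternatives, with the others given in the closing section. The script was tested on simulated counts. Tables and plots used Python 3.11.15, pandas 2.3.3 and matplotlib 3.10.9. Tags without molecular identifiers are not independent molecules, so counting errors are lower limits. Samples were matched to columns through the labels' descriptions. All 9 members are named, as are the listed arms and neighbours found in the table and the 5 sequences steadiest against the family total. The members and lists were chosen with earlier results of these data known.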

Additional observations from a re-analysis of the deposited data

Results flagged for a closer look

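let-7e-5p in HFrD replicate 3 was measured at 53.4 CPM, apart from the other 3 HFrD libraries, which lay between 70.4 and 71.9 CPM. Its gap to them was 0.920 of the group's range, above Dixon's 95% critical value for 4 samples. It was 1 of 40 sets of 4 values examined, and chance flags about 1 in 20.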

How the results depend on the processing

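Over 27 alternatives the log2 fold change of let-7d-5p ran from 0.24 to 0.56 (adjusted p from 0.00203 to 0.250, called in 6) and that of let-7i-5p from 0.13 to 0.33 (adjusted p from 0.0219 to 0.344, called in 3), and none of the other 7 members was called in any. The 27 include the fits over the family total, added after the data were seen, which measure a share and not a level. The 0.56 came from such a fit, without chow replicate 3, which is among the calls of both members. The highest value for the level of let-7d-5p was 0.53, on the authors' normalized score. let-7a-5p, let-7b-5p, let-7d-5p, let-7f-5p and let-7i-5p kept their direction in all 27. The number of sequences called, 10 as reported, was 23 with library totals, 1 with upper quartile factors, 22 with no filter, 20 on the authors' normalized score (limma) and 17 without predicted sequences. Members called, 0 as reported, were 2 with library totals, 2 on the score and 1 with no filter. The median over the members, 0.05 as reported, was 0.18 with library totals, 0.14 with upper quartile factors, 0.12 with no filter, 0.15 on the score and −0.019 with entries not merged by sequence. Directions reversed for let-7c-5p and let-7g-5p with library totals (0.040 and 0.027), upper quartile factors (0.012 and 0.013) and the score (0.039 and 0.027), and for let-7e-5p (−0.017) and miR-98-5p (−0.019) with entries not merged; the cause was not tested. The family total, at −0.04 as reported, was 0.080 with library totals, 0.062 with upper quartile factors and 0.078 on the score. Members whose groups did not overlap numbered 2 with library totals (15.9% of all sequences) and 2 with RLE factors (13.5%), against 1 (14.1%). Leaving out 1 library gave 1 (without chow replicate 2) to 17 (without chow replicate 3) sequences called, 0 to 1 members called, a median of 0.01 to 0.06, a family total of −0.06 to −0.02 and 1 to 6 members without overlap, 6 of them without chow replicate 3 and 2 without HFrD replicate 3.

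Relative to the family total, leaving out 1 library gave 0 sequences called without HFrD replicate 4 (30 at an unadjusted p under 0.05, edgeR), 1 without chow replicate 2, 6 without chow replicate 1, 6 without chow replicate 4 and 23, with 2 members, without chow replicate 3; the median was 0.11 without HFrD replicate 3. The replicate numbers did not pair the samples: deviations of same-numbered libraries correlated at −0.0996 to 0.145, and only HFrD replicate 1 correlated best with its own number. A fit with the replicate block called 15 sequences and 1 member, let-7d-5p (0.41, adjusted p = 0.0464, edgeR). At 70 to 110 counts, let-7e-5p was limited most by depth.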
